A study of Mus musculus with 8 samples.

Results

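The genes described here encode Janus kinases, the STAT factors they activate and the cytokine receptor chains they sit on. They were chosen by symbol, and for each the probe set that the platform annotation pairs with that symbol alone was used. Of the 10 symbols, 9 had such a probe set, 1 each: the kinases Jak1, Jak2 and Tyk2, the factors Stat3, Stat5a and Stat5b, and the receptor chains Il6st, Csf2rb and Csf3r. The kinase Jak3 is not analysed here. The 9 genes stand among 19505 genes on the arrays.

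Transcripts were measured on 8 arrays of mouse hematopoietic stem cells, 4 with eltrombopag at 10 µg/ml and 4 with sterile water as vehicle. All cells came from bone marrow of mice aged 6 to 10 weeks, were sorted as Lin-Sca-1+c-Kit+CD150+CD48- cells, and spent 16 h in liquid medium with stem cell factor at 100 ng/ml. Eltrombopag is taken by mouth to raise platelet counts, and it binds iron as well. The titles call the arrays of each group biological replicates. The sources used here do not give the strain, nor do they state whether each array had its own animals or how many were pooled. A p-value therefore measures the spread between these arrays, part of which may be technical. The comparison asks whether the drug changed transcript levels in stem cells, here those of the machinery that carries cytokine signals.

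Cytokine receptors of this class have no kinase activity of their own. When a cytokine brings receptor chains together, the Janus kinases bound to the chains phosphorylate each other and the receptor tails, STAT factors dock there and are phosphorylated in turn, and they enter the nucleus and bind their target genes. In blood stem and progenitor cells, receptors that use Jak2 and the STAT5 factors carry signals for survival and for growth of the myeloid, erythroid and platelet lineages. Most of this regulation acts on phosphorylation, which arrays do not measure.

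The main difference between the arrays followed the replicate numbers in the titles and not the drug. Correlations between arrays across genes ran from 0.987 to 0.993. A first principal component, with 25.5% of the variance, set the arrays numbered 1 and 2 of both groups (scores from -18.8 to -11.0) apart from those numbered 3 and 4 (14.0 to 15.6). The Y-linked gene Uty had 6.98 with eltrombopag and 7.71 with vehicle in the arrays numbered 3, against 3.02 to 3.31 in the other 6. Values are log2 expression values throughout. Of the stem cell markers, 12 of 12 had a mean above 6.79, the median of all gene means, among them Kit, the receptor of stem cell factor, at 12.88 ± 0.050 with eltrombopag and 12.89 ± 0.049 with vehicle (SD, n = 4 each). The same held for 4 of 10 neutrophil and monocyte, 1 of 6 B cell, 1 of 7 T and NK cell, 2 of 4 erythroid, 3 of 5 megakaryocyte and 0 of 6 mast cell and basophil markers. On the stem cell list, Ly6a had no probe set. Some of its other genes were close to the median, such as Procr (6.96 with eltrombopag, 6.74 with vehicle) and Slamf1 (7.07 and 7.01).

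The transcripts of the 9 signalling genes did not differ between eltrombopag and vehicle beyond the spread of the arrays. None was called by limma at an adjusted p under 0.05, where 0% of all genes were called. Their log2 differences ran from -0.10 to 0.026, with 2 higher and 7 lower with eltrombopag. Among all genes 52.3% were higher. The groups overlapped in all 9 genes, while they did not overlap in 2.12% of all genes. The direction was the same in all 4 pairs of a number for 0 of 9, against 12.6% of all genes. At an unadjusted p under 0.05 the count was 0 of 9, against 3.33% of all genes. The median log2 difference of the 9 was -0.026, against 0.0071 over all genes, and their median absolute difference was 0.026, against 0.083. The sign of 7 of the 9 differences changed in at least 1 of 19 alternative settings, and that of Jak1 and Jak2 in 0. The size of these 2 was not fixed: with 1 array left out, Jak1 ran from -0.13 to -0.0066 and Jak2 from -0.17 to -0.060. A block, a random effect, the filter on dim genes, another prior and another probe set leave the differences of the 9 unchanged. These settings therefore do not test a sign.

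The precision was enough to bound these differences. The 95% interval of the difference excluded a change of 1.5-fold in either direction for 9 of 9 genes, as it did for 88% of all genes. It excluded a change of 1.3-fold for 8 of 9, against 51.3% of all genes. The 1 gene outside this tighter bound was Il6st. These intervals come from the fit without the replicate block. With the block, the interval of Il6st was -0.33 to 0.17, which lies inside the tighter bound. All 9 also had a mean above the median of all gene means, so a filter on dim genes removed none. The values over all genes, here and for the median absolute difference, include dimmer genes and were not matched for level. These bounds apply to array values of the whole population of sorted cells, in which fewer cells with a transcript and less transcript per cell cannot be told apart.

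**Figure D1:**
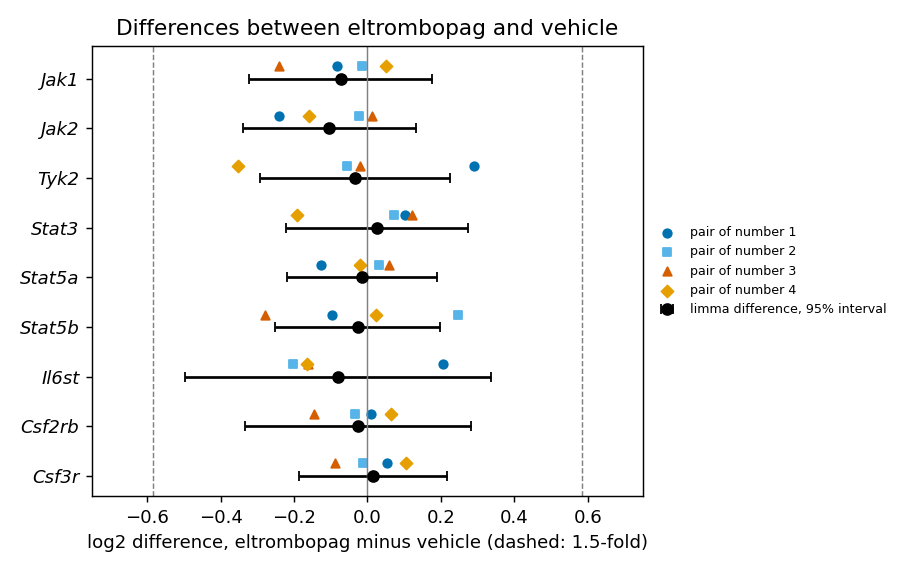
Log2 difference, eltrombopag minus vehicle, for the 9 genes. Black points and bars are the limma difference and its 95% interval over 4 arrays per group, coloured points are the differences between arrays of the same replicate number, and dashed lines mark 1.5-fold. Every interval crosses 0 and lies inside the dashed lines.

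Among the kinases, Jak2 had the largest difference of the 9 genes. Jak2 serves homodimeric receptors, such as that for erythropoietin, and the common beta chain. It had log2 values of 9.44, 9.75, 9.57 and 9.41 in the eltrombopag arrays numbered 1 to 4, against 9.68, 9.77, 9.56 and 9.57 in the vehicle arrays. The eltrombopag arrays 1 and 4 were below all vehicle arrays, and the other eltrombopag arrays lay within the vehicle range. The log2 difference of Jak2 was -0.10 (SE 0.11, 95% interval -0.34 to 0.13, adjusted p 0.99978 in limma), and Jak2 was lower in 3 of 4 pairs of the same number. This adjusted p was the same for all 9 genes.

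Jak1 binds the receptors of the gp130 group, of interferons and of the common gamma chain. Its values were 8.65, 8.89, 8.86 and 8.99 with eltrombopag, against 8.73, 8.90, 9.10 and 8.94 with vehicle. In both groups array 1 was the lowest. For Jak1 the log2 difference was -0.072 (SE 0.11, 95% interval -0.32 to 0.18), with lower values in 3 of 4 pairs.

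Tyk2 works with Jak1 on interferon receptors and with Jak2 on receptors of the IL-12 group. It had 9.35, 9.08, 9.09 and 8.82 with eltrombopag, against 9.06, 9.13, 9.11 and 9.17 with vehicle. The vehicle arrays were close together (SD 0.044) and the eltrombopag arrays were spread on both sides of them (SD 0.22), with array 1 above and array 4 below every vehicle array. The log2 difference was -0.035 (SE 0.12, 95% interval -0.29 to 0.22), and the difference within pairs ran from -0.35 for number 4 to 0.29 for number 1. Whether the spread differed between the groups was not tested.

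**Figure D2:**
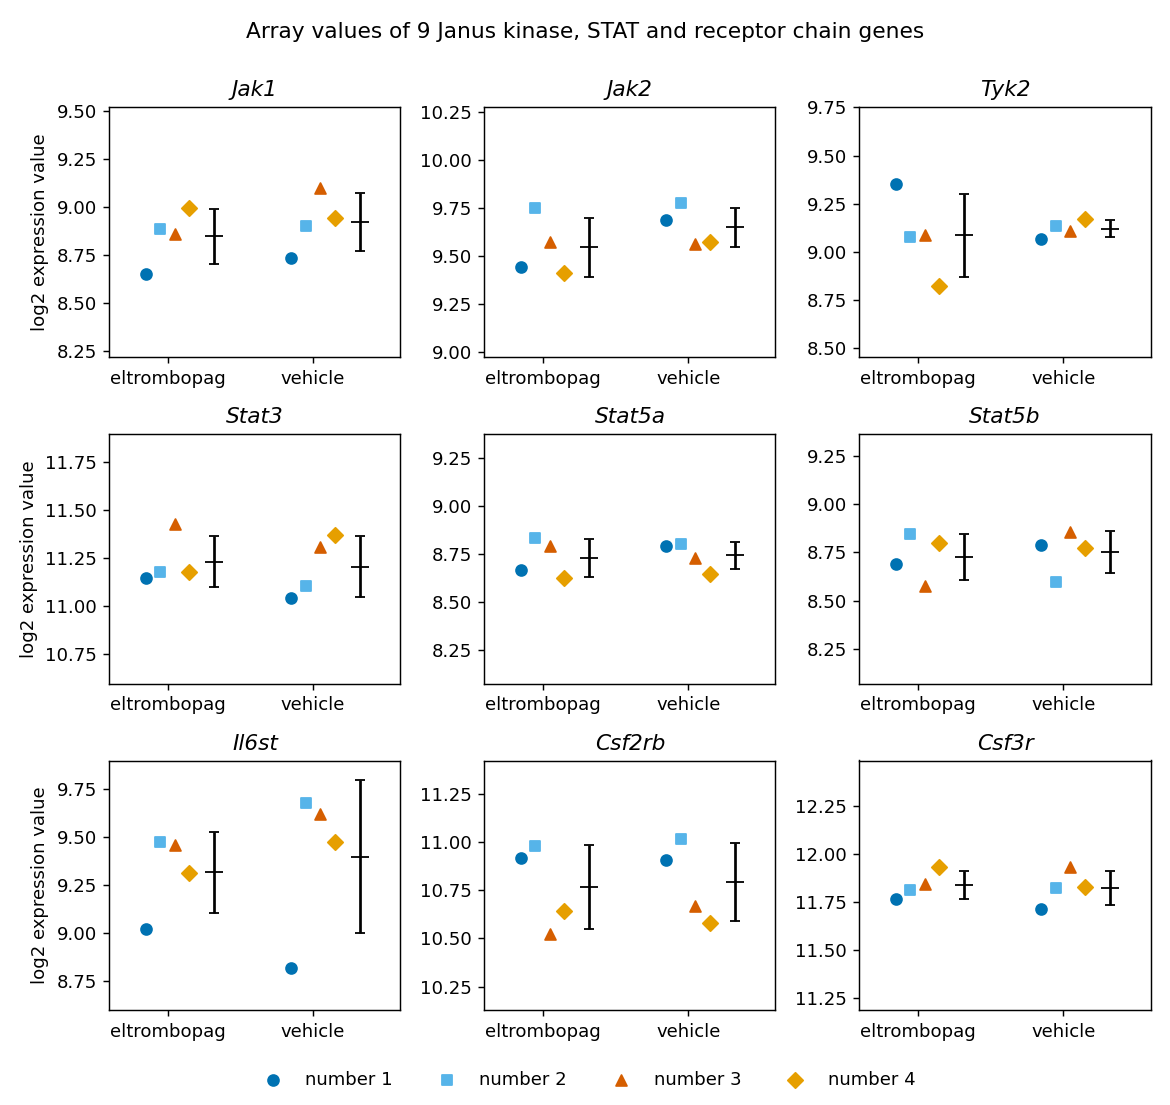
Log2 expression values of the 9 genes, 1 panel each with a vertical span of 1.3, in 4 eltrombopag arrays (left) and 4 vehicle arrays (right). Symbols mark the replicate number, and the bar beside each group is its mean and SD (n = 4). The groups overlap in every panel, Il6st is lowest in array 1 of both groups, and Csf2rb is higher in arrays 1 and 2 than in arrays 3 and 4 of both groups.

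The log2 differences of the STAT factors were 0.026 or less in size. Stat5a and Stat5b are closely related factors activated through Jak2 by many blood cytokines, and their genes lie side by side next to Stat3 on mouse chromosome 11. Stat5a had 8.67, 8.83, 8.79 and 8.62 with eltrombopag, against 8.79, 8.80, 8.73 and 8.65 with vehicle. Its log2 difference was -0.015 (SE 0.093, 95% interval -0.22 to 0.19), and it was higher in 2 of 4 pairs.

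Stat5b had 8.69, 8.84, 8.57 and 8.80 with eltrombopag, against 8.79, 8.60, 8.85 and 8.77 with vehicle. The pairs of number 2 (0.25) and number 3 (-0.28) differed in opposite directions. Its log2 difference was -0.026 (SE 0.10, 95% interval -0.25 to 0.20). As the 2 genes are near copies of each other, probes may take up some transcript of both.

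Stat3 is the main factor downstream of gp130 and of the G-CSF receptor. It had 11.14, 11.18, 11.43 and 11.18 with eltrombopag, against 11.04, 11.10, 11.30 and 11.37 with vehicle. With eltrombopag, array 3 stood above the other arrays, which lay within 11.14 to 11.18. Stat3 had a log2 difference of 0.026 (SE 0.11, 95% interval -0.22 to 0.27), and -0.0055 without both arrays numbered 3, so no direction is given.

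Among the receptor chains, Il6st varied most between arrays of all 9 genes (SD 0.30 over 8 arrays, range 0.86). It encodes gp130, the signalling chain shared by IL-6, IL-11, LIF and oncostatin M. It had 9.02, 9.47, 9.46 and 9.31 with eltrombopag, against 8.82, 9.68, 9.62 and 9.47 with vehicle. Array 1 was the lowest of its group in both, and the other 3 pairs were each lower with eltrombopag, with log2 differences of -0.20, -0.16 and -0.16 for numbers 2 to 4. The log2 difference over all pairs was -0.081 (SE 0.19, 95% interval -0.50 to 0.34). With the replicate number as a block the interval was -0.33 to 0.17, and Il6st did not pass (adjusted p 0.987 in limma).

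Csf2rb encodes the beta chain shared by the receptors for IL-3, IL-5 and GM-CSF. It had 10.92, 10.98, 10.52 and 10.64 with eltrombopag, against 10.91, 11.02, 10.67 and 10.58 with vehicle. The values of the groups lay closely together within each number, and the arrays numbered 1 and 2 were above those numbered 3 and 4 in both groups. Its log2 difference was -0.026 (SE 0.14, 95% interval -0.33 to 0.28). Its neighbour on chromosome 15, Csf2rb2, encodes a closely related chain that serves only IL-3 in the mouse, and probes may take up some of its transcript.

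Csf3r encodes the receptor for G-CSF, which drives neutrophil production. It had 11.77, 11.81, 11.84 and 11.93 with eltrombopag, against 11.71, 11.83, 11.93 and 11.83 with vehicle. It varied least of the 9 genes (SD 0.075 over 8 arrays). The log2 difference was 0.015 (SE 0.091, 95% interval -0.19 to 0.22), and its sign changed with array weights (-0.0028).

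No other part of the pathway was called either. The 80 measured genes of 6 lists had 0 called, 0 in each direction, and 1 at an unadjusted p under 0.05. They comprised 34 higher and 46 lower genes with a median of -0.013. In each list the 2 genes with the smallest p are named. Of 3 further STAT genes 1 was higher and 2 lower (median -0.095). Stat6, the factor of IL-4 signalling, differed by -0.095 (SE 0.091), and Stat4, the factor of IL-12 signalling, by -0.10 (SE 0.18). Without eltrombopag array 1 these were -0.062 and 0.00066.

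Receptor chains of the gp130, common beta and homodimeric groups were higher in 5 and lower in 6 of 11 cases (median -0.0048). The erythropoietin receptor Epor had 6.90, 6.54, 6.48 and 6.79 with eltrombopag, against 6.14, 6.50, 6.17 and 6.53 with vehicle. It was higher in 4 of 4 pairs, as were 6.73% of all genes, and the groups overlapped. Its log2 difference of 0.34 (SE 0.14) did not pass (adjusted p 0.99978 in limma). The mean of Epor was 6.68 with eltrombopag and 6.33 with vehicle, both below 6.79, the median of all gene means. Csf2ra, the chain that binds GM-CSF, differed by 0.17 (SE 0.094). Erythroid markers were higher in 4 of 4 measured genes and 0 of them were called; their mean level per array ran from 6.86 to 7.51 with eltrombopag and from 6.79 to 7.31 with vehicle. Megakaryocyte markers were higher in 4 of 5 (median log2 difference 0.13, like the 0.13 of the erythroid markers; 7.71 to 7.96 per array with eltrombopag and 7.45 to 7.97 with vehicle), and mast cell and basophil markers in 6 of 6 (median 0.043), with 0 called. The part of these markers in the value for Epor was not tested.

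The remaining JAK-coupled receptor chains were higher in 7 and lower in 11 of 18 cases (median -0.023), with Il9r, the IL-9 receptor, at 0.18 (SE 0.11) and Il2rb, a chain of the IL-2 and IL-15 receptors, at -0.19 (SE 0.13). Ligands were higher in 6 and lower in 5 of 11 cases (median 0.017). Among them Epo, which encodes erythropoietin, differed by 0.23 (SE 0.13) and Csf3, which encodes G-CSF, by 0.18 (SE 0.13). The difference of Epo was 0.12 without vehicle array 1, and that of Csf3 0.095 without vehicle array 4. The mean level of Epo was 5.12 with eltrombopag and 4.89 with vehicle, and that of Il2rb 4.39 and 4.59. These levels lie below 6.79, the median of all gene means, and 2 of the 11 ligands had a mean above it. Adaptors, phosphatases and inhibitors were higher in 7 and lower in 12 of 19 cases (median -0.021). In that list the phosphatase gene Ptpn11 differed by -0.17 (SE 0.11) and Stam, an adaptor of receptor sorting, by -0.24 (SE 0.18). Ptpn11 was at -0.088 without vehicle array 2, and Stam at -0.068 without eltrombopag array 1.

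Target genes of STAT3 and STAT5 were higher in 8 and lower in 10 of 18 cases (median -0.013). The largest difference there was that of Bcl3, an NF-kappaB regulator, at 0.42 (SE 0.21), or 0.17 without vehicle array 1, followed by the transcription factor gene Cebpd at 0.20 (SE 0.11, or 0.12 without vehicle array 1) in order of p. The survival kinase gene Pim2 was chosen after its values were seen. It had 8.24, 8.11, 7.71 and 7.60 with eltrombopag, against 8.67, 8.30, 8.06 and 7.76 with vehicle. It was lower in 4 of 4 pairs, as were 5.87% of all genes. Its log2 difference was -0.28 (SE 0.20), or -0.13 without vehicle array 1. With the replicate number as a block the SE was 0.094, and Pim2 did not pass (unadjusted p 0.0189, adjusted p 0.984 in limma).

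**Figure D3:**
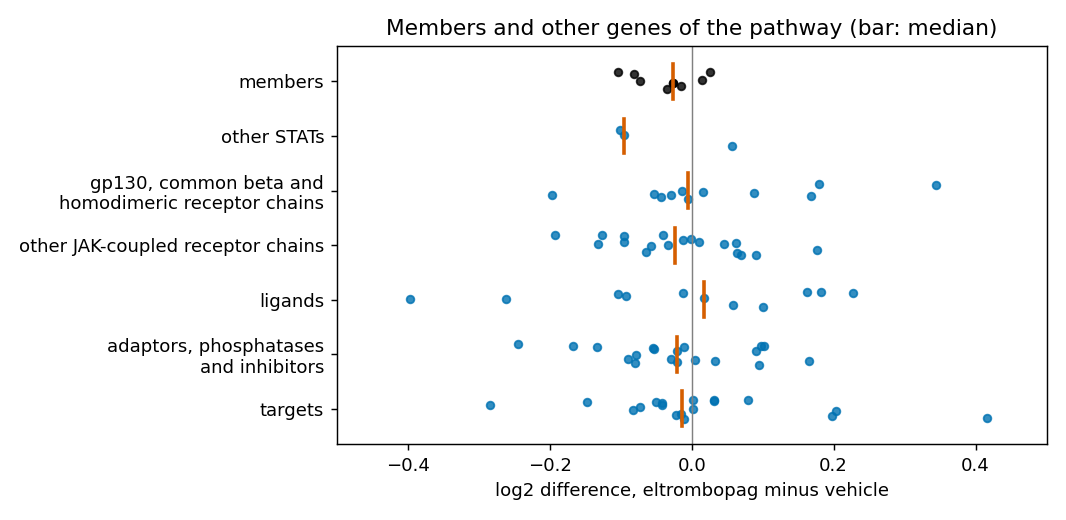
Log2 difference, eltrombopag minus vehicle, of each of the 9 members (black) and of the 80 other pathway genes in 6 lists (blue), 1 point per gene, with the median of each list as a bar. All points lie between -0.40 and 0.42, and the member genes between -0.10 and 0.026.

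Some genes differed by replicate number. limma's F test over the 4 numbers, with the drug as a term, called 41 genes, 0.21% of all genes. It called 3 to 17 genes with any 1 array left out, 2 without both arrays numbered 3, and 198 with a trended and robust prior. The test takes the 2 arrays of a number as independent samples, so it measures differences between numbers against the spread within them. Of the 9 signalling genes 0 were called, and 2 had an unadjusted p under 0.05, against 10.2% of all genes: Il6st (p 0.0097, adjusted p 0.344) and Csf2rb (p 0.0295, adjusted p 0.441). The mean of Il6st was 8.92, 9.58, 9.54 and 9.39 for numbers 1 to 4. The 4 arrays numbered 1 and 2 had Csf2rb values of 10.91 to 11.02, and those numbered 3 and 4 had 10.52 to 10.67.

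Among the 80 other pathway genes, the F test over numbers called 3, against 0.21% of all genes. Each was a STAT5 target, from the list of 18 measured targets of STAT3 and STAT5, and no other target on it was called. The lists were chosen with earlier results of these data known, and these 3 genes were named after their values were seen. Cish, a feedback inhibitor of STAT5 signalling, had 10.64, 10.94, 8.95 and 8.68 with eltrombopag, against 10.79, 10.77, 9.01 and 8.93 with vehicle (adjusted p 0.00658 in limma over the numbers). The feedback inhibitor gene Socs2 had 8.87, 8.98, 6.26 and 6.80 with eltrombopag, against 9.13, 9.04, 6.70 and 5.91 with vehicle (adjusted p 0.0307). In both genes the arrays numbered 1 and 2 were far above those numbered 3 and 4, in each group alike.

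The survival kinase gene Pim1 had the same order, with 9.59, 9.83, 8.74 and 8.57 with eltrombopag, against 9.79, 9.70, 8.67 and 8.61 with vehicle (adjusted p 0.0416). With 1 array left out, Cish passed in 5 of 8 fits, Socs2 in 2 and Pim1 in 0. Without both arrays numbered 3, the adjusted p was 0.0644 for Cish, 0.117 for Socs2 and 0.161 for Pim1. Stat5a and Stat5b themselves had adjusted p-values of 0.823 and 0.986 over the numbers, and Jak2 0.690. Of the markers of other cell types the F test over numbers called 1, the erythroid gene Epb42. The mean level of the 4 erythroid markers was 7.11, 6.82, 7.41 and 7.09 for numbers 1 to 4, that of the 10 neutrophil and monocyte markers 6.65, 6.42, 6.997 and 6.81, that of the 5 megakaryocyte markers 7.63, 7.62, 7.74 and 7.96, and that of the 12 stem cell markers 9.14, 9.36, 9.44 and 9.43. The means of the megakaryocyte, stem cell, and neutrophil and monocyte markers were higher for numbers 3 and 4 than for numbers 1 and 2. So was that of the B cell markers, with 5.76, 5.77, 5.83 and 5.84 for numbers 1 to 4. The mean of the T and NK cell markers was lower for numbers 3 and 4, with 5.52, 5.48, 5.41 and 5.35. The part of these markers in the values of the targets was not tested.

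The number also set how precisely the drug comparison could be read for these targets. Without the block, the log2 difference of Cish was -0.073 with an interval of -1.39 to 1.24. With the replicate number as a block, the interval was -0.31 to 0.17. For Pim1 the blocked interval was -0.24 to 0.22 and for Socs2 -0.46 to 0.52, and none of the 3 was called in either fit.

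**Figure D4:**
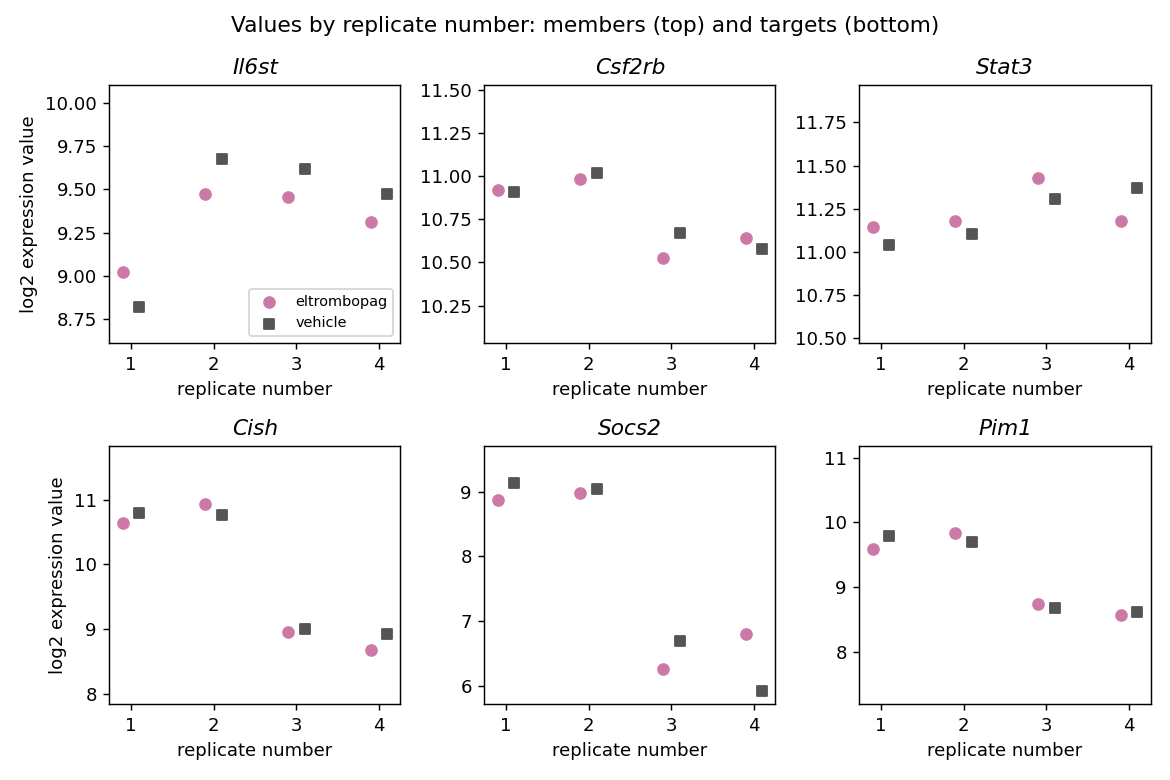
Log2 expression values by replicate number, for 3 signalling genes (top, vertical span 1.5) and 3 STAT5 targets (bottom, vertical span 4), with eltrombopag arrays as circles and vehicle arrays as squares. In Cish, Socs2 and Pim1 the 4 arrays numbered 1 and 2 lie above the 4 numbered 3 and 4 in both groups. Csf2rb has the same order over a smaller range.

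STAT dimers bind the palindrome TTCNNNGAA, which reads the same on both strands. It was looked for in RefSeq promoter windows of build GRCm38.p6, 250 bases before to 50 after a gene's start. Windows were found for 8 of the 9 signalling genes, 10 windows in all, and 0 held the motif, against 8.3% of 32851 windows. Of 14 targets with a window, 3 held it, Bcl6, Cish and Socs3, which is 21.4% of them against 9.55% of 27025 genes with a window. By window the motif stood in 4 of 19 (21.1%). The 2 windows of Pim1 held 0 matches, and Socs2 was not searched here. The windows with several matches are shown, since Cish had the smallest adjusted p of the 80 other pathway genes over the numbers and Bcl6, a transcriptional repressor, had its 3 highest values in arrays numbered 3 and 4. Capitals mark the motif, 2 matches in Cish (chr9:107296409-107296708, + strand) and 3 in Bcl6 (chr16:23981234-23981533, - strand).
Cish: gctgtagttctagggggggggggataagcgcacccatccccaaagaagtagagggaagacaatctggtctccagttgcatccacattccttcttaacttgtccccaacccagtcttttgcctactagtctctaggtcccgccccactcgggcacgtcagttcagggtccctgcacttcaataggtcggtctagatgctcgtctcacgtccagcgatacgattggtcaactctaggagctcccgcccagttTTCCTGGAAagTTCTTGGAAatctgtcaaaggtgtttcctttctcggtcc
Bcl6: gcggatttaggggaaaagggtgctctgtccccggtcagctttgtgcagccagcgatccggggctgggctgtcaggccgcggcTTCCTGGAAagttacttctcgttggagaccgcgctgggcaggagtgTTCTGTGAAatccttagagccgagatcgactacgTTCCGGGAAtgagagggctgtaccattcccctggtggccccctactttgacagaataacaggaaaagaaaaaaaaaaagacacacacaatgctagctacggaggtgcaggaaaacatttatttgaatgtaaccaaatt
A match describes these letters and does not show that a factor binds there. Bcl6 had 7.25, 7.67, 8.31 and 8.36 with eltrombopag, against 7.68, 7.90, 8.47 and 7.76 with vehicle, and was not called over the numbers (adjusted p 0.440 in limma).

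The genes whose values followed the most variable signalling genes most closely were found by Pearson correlation over the 8 arrays, as a description without a test. The arrays are shared by all genes, and those numbered 1 and 2 lie apart from those numbered 3 and 4. For Il6st they were Top2b (r 0.973), Mapk8 (0.971) and AW549877 (0.966). For Csf2rb they were Agap1 (0.990), Sars (0.980) and Phgdh (0.979). For Tyk2 they were Adipoq (0.974), Zkscan7 (0.968) and Ring1 (0.963), and these were 0.763, 0.579 and 0.669 without the 2 arrays farthest from the median of Tyk2. Without the 2 arrays farthest from the median of Csf2rb, its 3 correlations were 0.982, 0.963 and 0.974, and for Il6st they were 0.879, 0.931 and 0.815. Between the 9 genes themselves the 36 correlations ran from -0.85 (Stat3 with Csf2rb) to 0.88 (Jak1 with Csf3r), with a median of -0.0057. Stat5a and Stat5b correlated at -0.20.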

How the data were processed

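Transcripts were measured on 8 Affymetrix arrays, from about 10 ng of RNA per sample amplified with a 3' kit, per the labels' protocols. Each deposited value is a log2 expression level of 1 probe set, and RMA, oligo and limma are named without versions, per the submitters' processing notes. RMA sets arrays to a common distribution, so differences in total RNA are removed before deposit. The sources used here do not give the genome build. Signal over background was not used here, and the number of arrays limits the precision.

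Of 22206 probe sets, 19572 had 1 symbol, 0 several and 2634 none. They gave 19505 genes, and the probe set with the highest mean stood for the 55 genes with several. No 2 arrays shared any value (tolerance 0). Groups and replicate numbers came from the titles. Tests used limma 3.58.1 in R 4.3.3 (lmFit, eBayes, two-sided, group as the only term), with Benjamini-Hochberg adjustment over all genes at 0.05, and were tested on simulated data. An F test over the replicate numbers kept the group as a term.

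The members, the 6 pathway lists (87 entries, 80 measured) and the marker lists were chosen with earlier results of these data known. Named were all members, the 2 genes of smallest p per list, and for the 3 most variable members the 3 most correlated genes; Cish, Socs2, Pim1, Pim2 and Bcl6 were added after their values were seen. Arrays of the same number deviated together from their group means (correlation 0.241, 0.294, 0.192 and 0.142 for numbers 1 to 4, against -0.208 to 0.171 for other pairs). Numbers 3 and 4 were not clearly told apart this way. Eltrombopag array 3 with vehicle array 4 had 0.171, and eltrombopag array 4 with vehicle array 3 had 0.168. Arrays of 1 number were treated as a pair in the counts of pairs and in the block, and not in the main test. This pairing rests on the data, as the labels do not state it. Alternatives were the number as a block or random effect, a filter on dim genes, other scalings, array weights, another prior, another probe set and leaving out arrays.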

Additional observations from a re-analysis of the deposited data

Results flagged for a closer look

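The 26 genes with values per array or a named difference were searched for an array lying far from the rest of its group, which makes 52 groups of 4 arrays. There were 2 cases, where chance flags about 1 group in 20. In Stat3, eltrombopag array 3 was at 11.43 while the remaining eltrombopag arrays were at 11.14 to 11.18, a gap of 0.881 of the group's range. In Bcl3, vehicle array 1 was at 6.18 while the remaining vehicle arrays were at 7.04 to 7.19, a gap of 0.851 of the range. Without vehicle array 1 the log2 difference of Bcl3 was 0.17, against 0.42 with all arrays.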

How the results depend on the processing

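Over 19 alternatives the count of called genes stayed at 0, and so did that of the 9 signalling genes. With the replicate block 0 genes were called (904 against 650 without it at an unadjusted p under 0.05), and it changed no call for any named gene. Of 171 values of the 9 genes under the alternatives, 28 had the opposite sign and 0 passed. The 171 include settings that cannot change these differences: the block, the random effect, the dim-gene filter, the other prior and the other probe set. Jak1 and Jak2 kept their sign in all 19, with values from -0.13 to -0.0066 and from -0.17 to -0.060 when 1 array was left out. The cause was not tested. With array weights Csf2rb was 0.00090, Csf3r -0.0028, Cish 0.11 and Pim1 0.11. Without both arrays numbered 3, Stat3 was -0.0055, Stat5b 0.058 and Csf2rb 0.013. In numbers 1 and 2 only, Tyk2 was 0.12, Stat5b 0.075, Il6st 0.0018, Socs2 -0.16 and Cish 0.0093. In numbers 3 and 4 only, Stat3 was -0.035, Stat5a 0.019, Epo -0.011, Stam 0.014 and Pim1 0.013. Leaving out 1 array in turn moved Tyk2 between -0.12 and 0.054, Stat3 between -0.039 and 0.081, Stat5a between -0.050 and 0.020, Stat5b between -0.079 and 0.024, Il6st between -0.27 and 0.018, Csf2rb between -0.098 and 0.055, Csf3r between -0.022 and 0.050, Stat4 between -0.24 and 0.00066, Socs2 between -0.56 and 0.52, Cish between -0.45 and 0.30, and Pim1 between -0.23 and 0.19. For the replicate numbers, eBayes with trend and robust called 198 genes in place of 41, the fit without both arrays numbered 3 called 2, and leaving out 1 array in turn, which leaves a number with 1 array assumed to vary like the others, called 3 to 17. None of the 9 genes was called in any of these fits. The values for named genes outside the 9, and the gene-wise values over the numbers, were added after seeing the data.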
